A study of Mus musculus with 10 samples.

Results

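The probes described here target stretches of the mouse genome that carried no gene name on the array and are identified only by mm9 coordinates and a strand. They were chosen as the region probes that the extraction software marked as well above background on at least 2 of 10 arrays, which kept 7856 of 16194 region probes (48.5%) among 55681 non-control probes in all. These members lie in 3532 of the 4610 regions on the array, where a region is 1 set of coordinates on 1 strand. Of the members, 3884 were on the forward strand, 3969 on the reverse strand and 3 had no strand in the annotation.

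The study used EML-C1, a mouse blood progenitor cell line that can be driven to red cell or white cell fates, and asked how gene expression moves as the cells choose between them. All cultures grew in horse serum with conditioned medium from BHK/MKL cells. The 10 arrays hold 1 array for each condition: untreated cells at day 0, Sca1-low and Sca1-high cells sorted at day 3, and a sample at day 6, of each of 3 treatments. The treatments were erythropoietin (EPO, 10 ng/ml), IL-3 (10 ng/ml) with all-trans retinoic acid (10 µM), and all of these factors combined. In the arrays labelled IL-3/GM-CSF and in the combined treatment, 10 ng/ml GM-CSF entered only after day 3, so the day 3 cells of these treatments had seen IL-3 and retinoic acid and not GM-CSF. The design text speaks of 2 independent experiments per condition, but 1 array per condition was analysed here, from 1 cell line. No array has a replicate, and p-values below take the treatment-by-population interaction as the error.

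Much of a mammalian genome outside protein-coding genes is transcribed, often at low levels, into long noncoding RNAs, which are spliced and polyadenylated like messenger RNAs but encode no known protein. In blood formation several such RNAs are known to be made in 1 lineage and not in another, among them RNAs that accompany red cell maturation. Sca1, encoded by Ly6a, is a surface protein of stem and progenitor cells that is lost as cells commit to the red cell fate. EPO is the hormone that drives red cell formation, and IL-3 and GM-CSF are growth factors of the white cell lineages. Labelling started from an oligo-dT primer, per the labels' protocols, so the signals come mainly from polyadenylated RNA, and the RNA had been treated with DNase.

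Levels below are log2 processed intensities relative to the 75th percentile of the same array, so a level of 0 is the brightness of a spot at that percentile. Sequences of the probes and regions, and the mm9 positions of annotated genes, were not analysed here, so no nearest gene is named. The identity of the arrays was checked on marker genes. Ly6a stood at -4.24, -3.43 and -2.80 in the Sca1-low fractions of EPO, IL-3 with retinoic acid and the combined treatment, against 4.76, 2.64 and 1.91 in the Sca1-high fractions. Of 32 erythroid genes measured, 21 were higher in Sca1-low cells by at least 2-fold in each treatment and 1 was lower, and of 26 neutrophil genes 0 were higher and 8 lower. The summed erythroid level was 10.04 to 10.92 in the Sca1-low and 8.96 to 9.44 in the Sca1-high arrays, and the summed neutrophil level was 5.03 to 7.12 against 8.93 to 9.84. In untreated cells these sums were 8.74 and 9.26. The neutrophil genes Mpo and Ctsg were brightest in EPO Sca1-high cells, at 8.40 and 8.68, and read 8.24 and 8.09 in untreated cells. Other lists fell too: of 15 monocyte genes 9 were lower and 0 higher, and of 15 mast cell and basophil genes 8 and 0. The Sca1-high arrays are thus not marked as neutrophil alone. Fewer cells of a type and less RNA per cell cannot be told apart in these bulk samples.

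Region probes were dim. Of all region probes, 36.8% were well above background in untreated cells. In the Sca1-low, Sca1-high and day 6 arrays these shares were 30.0%, 36.3% and 24.7% for EPO, 34.6%, 43.9% and 31.8% with IL-3/GM-CSF and 42.8%, 43.3% and 41.9% with the combination. The other probes lay higher on every array, at 48.7% to 61.9%. Over all arrays, 5854 region probes were never above background, 2484 were above it on exactly 1 array and so are no members, 1002 on exactly 2 and 3195 on all 10. The share above background on all 10 arrays was 19.7% for region probes and 45.04% for the other probes. The median member level ranged from -3.54 (combined treatment at day 6) to -2.87 (combined treatment, Sca1-low), and the 95th percentile from 1.84 to 2.56. Most members therefore lay well under the 75th percentile of their array, and a small share was bright.

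The 2 arrays with the dimmest signal were both from EPO-treated cells. The 75th percentile of intensity was 305 for EPO Sca1-low and 484 for EPO at day 6, against 590 to 738 on the other 8 arrays. The background limit, the lowest level that still counted as well above background, was -3.72 and -3.49 on these arrays and -5.37 to -4.20 on the others. Members above background numbered 3817 at EPO day 6 and 4599 at EPO Sca1-low, against up to 6800 on the array of IL-3 with retinoic acid, Sca1-high. Of the members, 516 were below background on EPO day 6 alone and 154 on EPO Sca1-low alone. A low level on either array is therefore often only a bound. Where the dim side of a difference was below background, the fold of the region's brightest probe is also given as "at least". For this, each such level under its array's background limit was raised to that limit. Some probes marked as below background read above the limit, 1 of them at -3.50 on EPO Sca1-low, so "at least" is not a strict bound.

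Regions were covered by up to 10 probes. Of the 3920 regions with 2 or more probes, 788 had every probe among the members, 2361 had some and 771 had none. Detection also differed by chromosome, from 39.0% of region probes on chromosome 10 to 58.2% on chromosome 5. Long and short regions both carried members: the lengths of member regions had a median of 11384 bases, with quartiles at 2508 and 27080.

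Probes of 1 region did not always move together. Across the 10 arrays, the median Pearson correlation between member probes of a region was 0.348 over 2033 regions with at least 2 tested members. In 376 of these the median correlation was at least 0.8, and in 442 it was below 0. Where every member was above background on all 10 arrays (331 regions) the median correlation was 0.743. It was 0.850 in the 96 regions whose levels varied most, with an SD over the arrays of at least 1.5. The values share arrays and scaling and are given as a description. A difference seen by 1 probe of a region was thus often not seen by its neighbours, and the text says below how many probes of a region moved.

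Both strands were covered in 1067 intervals. Members were found on both strands in 777 of them, on the forward strand alone in 119, on the reverse strand alone in 120 and on neither in 51. The profiles of the 2 strands had a median correlation of 0.225 over 757 intervals, with 60 at 0.8 or more and 238 below 0. In 15 intervals all probes of 1 strand were above background on all 10 arrays while no probe of the other strand was above it on any. Most of these intervals held only 1 probe on each strand. One of them is chr3:100363012-100369971 on mm9, where all 3 reverse-strand probes were above background on every array and none of 5 forward-strand probes was above it on any. Another is chr14:103751075-103769725, with 3 forward-strand probes on and 2 reverse-strand probes off.

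The most stable members gave nearly the same level on every array. The 4 regions with the smallest SD among those above background throughout include chr4:131734714-131742542 on the forward strand, whose level lay between 3.12 and 3.48, and chr16:91198576-91199149 on the forward strand, between -2.76 and -2.40. Also among them were chr17:6426800-6528950 on the forward strand (0.06 to 0.32) and chr1:88398401-88398644 on the reverse strand (-0.59 to -0.32). Each range is that of the region's brightest probe. The other probes of the chromosome 4 region read between -0.57 and 1.71. The second members of the chromosome 16 and chromosome 17 regions ranged from -6.24 to -3.39 and from -3.77 to -2.54. Over the 3167 members with a value and above background on all 10 arrays, the median SD was 0.43 log2, against 0.41 for 17699 other probes. An SD of at least 1 was reached by 135 of these members (4.26%) and by 7.21% of the other probes.

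The first comparison asks which region RNAs separate the Sca1-low from the Sca1-high cells at day 3, over EPO, IL-3 with retinoic acid and the combined treatment. In limma on the 6 day 3 arrays, with treatment in the model, 57 members rose and 79 fell in Sca1-low cells at an adjusted p under 0.05 over all 33053 probes tested. The balance of directions differed with the handling of dim probes: 195 rose and 80 fell when only probes above background on all 10 arrays were tested, and 121 rose and 91 fell with levels raised to the background limit. More fell than rose under other scalings. The split was 43 and 76 after quantile normalization, and 98 and 120 after normexp with quantile normalization. With the percentile over probes above background on all arrays it was 38 and 78. Shares over all probes were not counted in these settings. The 57 and 79 are 0.741% and 1.03% of 7688 members tested, against 1.28% and 2.9% of all probes. The differences ran from 1.43 to 4.96 log2 for those that rose, with a median of 1.86, and from -5.31 to -1.5 for those that fell, with a median of -2.54. By size alone, 78 members were at least 2-fold higher and 127 at least 2-fold lower in all 3 treatments, against 1.95% and 4.28% of all probes. As shares of the members these are 1.01% and 1.65%, below the shares over all probes in both directions. With levels raised to the background limit 78 were higher and 80 lower, and among members above background on all 10 arrays 39 were higher and 30 lower. Over the members tested the median difference was 0.24 log2, against 0.20 over all probes. That median over all probes is itself a matter of scaling, and was 0.07 after quantile normalization and 0.06 with the percentile taken over probes above background on all arrays. For EPO against untreated cells it was 0.15, and 0.01 and 0.03 in the same order.

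The calls rest on few arrays. Without either fraction of IL-3 with retinoic acid limma called 0 members, without either combined-treatment fraction 33, and without either EPO fraction 304. In the model over all 10 arrays 0 members passed and 975 had an unadjusted p under 0.05, against 1302 in the 6 day 3 arrays, which is 16.9% of members where all probes gave 23.3%. For the 975 the share over all probes was not counted.

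The called probes lie in 91 regions, of which 68 hold 1 called probe and 23 hold 2 or more. In each of these 23 regions the called probes moved in 1 direction, up in 9 and down in 14. Some regions overlap, so these are not 23 separate places. Among the 91 regions, 20 pairs overlap or lie within 100000 bases of each other, 11 of them overlapping. In 17 of the 20 pairs both regions moved the same way.

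Among the regions higher in Sca1-low cells, the largest difference was at chr10:93975406-93977476 on the reverse strand. Its probe stood at 1.59, 0.27 and 0.36 in the Sca1-low fractions of EPO, IL-3 with retinoic acid and the combined treatment, and at -3.07, -5.25 and -4.36 in the Sca1-high fractions. It was at -4.12 in untreated cells and at 1.75, -6.34 and -5.52 at day 6 of EPO, IL-3/GM-CSF and the combination. The 4 high arrays are thus the 3 Sca1-low fractions and EPO at day 6, with no overlap with the other 6. The limma difference was 4.96 ± 0.28 log2 (SE, adjusted p = 0.011), a difference of at least 30.7-fold with the background limit. The region has 3 probes, and this one is its only member.

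Several probes of a region were higher together in some cases. At chr5:77084398-77086144 on the reverse strand the brighter probe read 1.48, 1.64 and 1.21 in Sca1-low cells and -1.26, -3.48 and -2.60 in Sca1-high cells of EPO, IL-3 with retinoic acid and the combined treatment. It read -1.13 in untreated cells and 2.31, -5.59 and -2.30 at day 6 in the same order. Both of its probes were called, with limma differences of 3.81 and 3.89 log2 (SE 0.50 for the brighter probe, adjusted p = 0.033). Without either combined-treatment fraction the adjusted p of the brighter probe in limma was 0.0629, and without the filter on dim probes it was 0.0559.

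At chr12:32781477-32808567 on the reverse strand all 3 probes were higher in Sca1-low cells, by 2.90 to 4.52 log2 (2.70 to 3.40 with levels raised to the background limit), and 2 were called. Its brightest probe read -1.71, -1.07 and -1.0 in the Sca1-low fractions against -5.03, -4.64 and -3.90 in the Sca1-high fractions, with a limma difference of 3.27 ± 0.25 (SE, adjusted p = 0.015), at least 8.65-fold. At day 6 it read -0.65 with EPO, -2.82 with IL-3/GM-CSF and -3.32 with the combination, all above the untreated array, where it was below background. At chr5:122982442-123000053 on the forward strand the brightest probe rose by 3.20 ± 0.23 (SE, limma adjusted p = 0.013), at least 8.84-fold, and the other member of the region differed by 0.71.

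A longer run of probes covers chr17:24152225-24169870 on both strands. All 9 reverse-strand probes were members and all were higher in Sca1-low cells, by 0.71 to 2.00 log2, with 4 of them called by limma. The single forward-strand member of the interval was bright throughout, at 5.59, 4.59 and 4.66 in the Sca1-low fractions of EPO, IL-3 with retinoic acid and the combined treatment and 3.36, 2.80 and 2.70 in the Sca1-high fractions. It stood at 2.85 in untreated cells and at 5.72, 0.53 and 1.81 at day 6. On both strands the 3 Sca1-low fractions and EPO at day 6 were mostly the highest arrays, though their order differed between probes, with correlations between the forward probe and the reverse probes of 0.78 to 0.97. The other regions with several called probes that rose include chr11:93994795-94017045 on the forward strand (2.45 and 2.75 log2) and chr17:15100982-15115630 on the reverse strand (3 of 3 probes, 1.80 to 1.93).

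Among the regions lower in Sca1-low cells, the largest difference of a single probe was at chr8:82836971-82849309 on the reverse strand, -5.31 ± 0.65 log2 (SE, limma adjusted p = 0.031), at least 14.1-fold. That probe read -1.99, -0.39 and 1.41 in the Sca1-high fractions of EPO, IL-3 with retinoic acid and the combined treatment and was below background in all 3 Sca1-low fractions and at EPO day 6. It read -1.40 in untreated cells and -0.46 and 0.01 at day 6 of IL-3/GM-CSF and the combination. A second probe of the region was also called, at -4.86, but the third, the brightest, was above background on every array and differed by only -0.84 (limma adjusted p = 0.466).

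At chr1:175705225-175717250 on the reverse strand each of 5 probes was called by limma, with differences from -5.26 to -3.46, or -3.95 to -2.61 with levels raised to the background limit. The brightest probe read -0.28, 0.19 and 0.11 in the Sca1-high fractions of EPO, IL-3 with retinoic acid and the combined treatment and -0.26 in untreated cells. It read -5.97, -5.03 and -3.90 in the matching Sca1-low fractions, of which only the last was above background. At day 6 it read -4.35 with EPO, -0.21 with IL-3/GM-CSF and -0.51 with the combination. The 4 low arrays are the same 4 that were high for the region on chromosome 10. The limma difference was -4.98 ± 0.39 log2 (SE, adjusted p = 0.015), or at least 15.5-fold.

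A group of 3 overlapping reverse-strand regions lies 33 kb to the left of it, and each held called probes that fell. In chr1:175654606-175672031, 4 of 5 probes were called, with differences from -3.93 to -2.50 (-2.70 to -0.77 with levels raised to the background limit), while the fifth differed by 0.27. In the overlapping chr1:175653557-175671940 the brightest probe read -3.14, -2.32 and -2.58 in the Sca1-high fractions, and no Sca1-low fraction was above background. Its limma difference was -3.70 ± 0.36 (SE, adjusted p = 0.020), but with levels raised to the background limit it came to -1.46 with an adjusted p of 0.0626 in limma, at least 2.75-fold. The other member of that region was below background on all of these arrays. It read -5.94, -6.35 and -6.74 in the Sca1-low and -6.79, -5.42 and -5.49 in the Sca1-high fractions.

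On chromosome 10, chr10:83181374-83249774 on the forward strand had all 5 probes called by limma, with differences from -4.31 to -3.06, or -3.82 to -2.08 with levels raised to the background limit. Its brightest probe read -5.21, -2.11 and -1.67 in the Sca1-low and 0.65, 1.83 and 1.48 in the Sca1-high fractions of EPO, IL-3 with retinoic acid and the combined treatment. It read 0.09 in untreated cells and -5.33, -0.17 and 0.77 at day 6. The limma difference was -4.31 ± 0.57 (SE, adjusted p = 0.034), at least 14.1-fold, and without the filter on dim probes the adjusted p was 0.0578. A shorter region inside it, chr10:83185606-83225506 on the same strand, had 3 of 3 probes called, from -4.18 to -3.65 (-3.53 to -3.25 with raised levels). The brightest probe of the longer region was below background on EPO Sca1-low and EPO day 6, so its difference under EPO is a bound.

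Opposite directions on opposite strands were seen on chromosome 9. At chr9:96632664-96653249 on the reverse strand all 3 probes were lower in Sca1-low cells, by -3.83 to -3.40, and 1 of them was called by limma. For the brightest probe the limma difference was -3.83 ± 0.67 (SE, adjusted p = 0.059), at least 9.35-fold. It read 0.17, -1.06 and -0.26 in the Sca1-high fractions against -5.53, -3.55 and -3.55 in the Sca1-low fractions. Starting 20702 bases to the right, chr9:96673952-96674816 on the forward strand had both tested members called in the other direction. All 3 Sca1-high fractions were below background for both probes, so their differences of 2.37 and 3.30 are not exact. With levels raised to the background limit these were 0.98 and 1.61, and for the probe with the smaller difference 1 Sca1-low fraction was below background too.

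The profiles of some of these regions were set beside those of named genes. The measure was the Pearson correlation over the 10 arrays with the region's brightest probe, the limit was 0.95, and the named genes are the 6 most alike with an SD of at least 1, a rule set after values were seen. The arrays fall into 4 high and 6 low ones for these profiles, so a high correlation reflects little more than that split. With the chromosome 10 region that was highest in Sca1-low cells, 41 members in 25 regions on 15 chromosomes (0.533% of members) and 345 other probes (1.36%) correlated at 0.95 or more. The closest named genes were Chpf, Tac2, Trim10, Gypc, Sdsl and Redrum, with correlations of 0.992 to 0.995. Gypc encodes glycophorin C, a protein of the red cell membrane, Trim10 is an erythroid ubiquitin ligase gene, and Redrum is a long noncoding RNA known from red cell precursors. Redrum read 0.54, -0.43 and -0.65 in the 3 Sca1-low fractions and -3.81, -5.51 and -4.83 in the Sca1-high fractions.

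With the chromosome 1 region of 5 called probes, 9 members in 8 regions and 148 other probes correlated at 0.95 or more. The closest named genes were Cds1, Parp8, Rgs2, Gpr171, Klf6 and Ifi204, at 0.982 to 0.990. Ifi204 belongs to a family of interferon-inducible genes that, like the region, lies on chromosome 1. Ifi204 read -6.02, -6.48 and -5.72 in the Sca1-low and -1.04, -0.28 and -0.52 in the Sca1-high fractions of EPO, IL-3 with retinoic acid and the combined treatment.

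A different set of arrays was high at chr13:60508775-60534625 on the reverse strand, 1 of the 4 regions with the largest SD. Its brighter probe read 3.59 and 2.39 in the Sca1-high fractions of IL-3 with retinoic acid and of the combined treatment, and 3.07 and 2.35 at day 6 of IL-3/GM-CSF and the combination. It read -1.31 in untreated cells, -2.13 and -1.0 in the EPO fractions, -2.79 at EPO day 6 and -1.74 and -1.88 in the Sca1-low fractions of the other treatments. The 4 high arrays, all of cells that had seen IL-3 and retinoic acid, do not overlap with the other 6. The other member of the region read between -5.39 and -4.18 on the 10 arrays. In all, 12 members in 9 regions and 130 other probes followed this profile at 0.95 or more, among them 3 probes of chr17:87674225-87682154 and 2 of chr19:53517903-53540753, both on the reverse strand. The closest named genes were Lilra6, Gm14548, Cyp4f18, Lrp12, Slc34a1 and C130050O18Rik, and Lilra6, a receptor gene of myeloid cells, read 5.99 and 4.81 in the 2 high day 3 fractions.

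The fraction differences of region probes were less alike between treatments than those of other probes, as a description. Over the members, the correlation of the Sca1-low minus Sca1-high difference was 0.162 between EPO and IL-3 with retinoic acid, 0.267 between EPO and the combined treatment and 0.388 between the latter 2. Over the other probes these were 0.442, 0.525 and 0.711. The difference had 1 sign under all 3 treatments in 39.6% of members and 51.5% of other probes. These are correlations across probes, which are not independent, and members were dimmer than the other probes, whose part in this was not tested. The fractions differed by at least 2-fold one way under EPO and the other way with IL-3 and retinoic acid for 44 members that were higher in Sca1-low cells under EPO and 127 that were lower, or 0.572% and 1.65% of members, against 0.520% and 1.05% of all probes.

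Many large values came from 1 array. Among the 10094 region probes with a value on every array and above background on at least 1, 556 (5.51%) had a highest array at least 3 log2 above the next, an 8-fold gap. The share was 3.01% of 29079 other probes. Of the 556, 148 had their peak on EPO Sca1-low, 108 on EPO day 6, 69 on IL-3 with retinoic acid Sca1-low and 9 each on the untreated and the combined day 6 array. The arrays with the most such peaks thus included the 2 dimmest. The same regions held 1901 other probes, and only 73 of these (3.84%) were at least 1 log2 higher on that array than on any other. Among the members 88 were of this kind, 35 of them on EPO Sca1-low.

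The second comparison set EPO against IL-3/GM-CSF within the Sca1-low, Sca1-high and day 6 populations. In limma 0 members passed (0% of all probes did), 922 (11.99%, against 15.3% of all probes) had a p under 0.05 before adjustment, and no member had an adjusted p below 0.210. Without the EPO Sca1-low array 12 members passed. At least 2-fold in all 3 populations, 27 members were higher and 46 lower under EPO, or 0.351% and 0.598% of members, against 0.43% and 1.24% of all probes. The split was 11 and 10 after normexp with quantile normalization, 26 and 21 with levels raised to the background limit, and 19 and 7 among members above background on all 10 arrays.

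Some of the regions higher under EPO were above background on all 10 arrays. At chr1:188535096-188536977 on the reverse strand the level was 2.61, 1.84 and 1.07 under EPO in Sca1-low cells, Sca1-high cells and at day 6. Under IL-3/GM-CSF it was 1.01, -0.74 and -2.03, in the combined treatment 0.78, -0.52 and -1.92, and in untreated cells -0.12. EPO was the highest treatment in each population, by 2.43 ± 0.33 log2 over IL-3/GM-CSF (SE, limma adjusted p = 0.210, and 0.0492 without EPO Sca1-low). At chr2:25774411-25783757 on the reverse strand the brightest probe read 0.81, 0.11 and -0.62 under EPO against -0.58, -2.42 and -3.84 under IL-3/GM-CSF, a difference of 2.38 ± 0.36 (SE, limma adjusted p = 0.210), and 2 of its 3 tested members differed in that direction. The region chr10:93975406-93977476 was also among the 4 with the highest difference, at 3.86 ± 1.37 (SE, limma adjusted p = 0.303), at least 8.77-fold.

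The other of these 4 lies at chr15:12119755-12127230 on the reverse strand. Its bright probe read 3.68 in untreated cells, 0.99, 3.81 and -0.02 under EPO in Sca1-low cells, Sca1-high cells and at day 6, and -2.35, -0.84 and -1.77 under IL-3/GM-CSF. In the combined treatment it read -1.96, -2.25 and 0.02. Untreated and EPO Sca1-high cells were the 2 highest arrays, and every array of cells given IL-3 and retinoic acid was at 0.02 or below. The difference of EPO from IL-3/GM-CSF was 3.25 ± 1.01 (SE, limma adjusted p = 0.293). Of the 5 probes of this region 1 further probe was a member, and its difference was 0.08.

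The forward strand of the same interval gave the opposite order for the untreated cells. Its brightest probe was lowest there, at -4.12, and read -0.23, -2.19 and -0.46 under EPO, -1.60, -1.28 and -0.97 under IL-3/GM-CSF and -1.52, -2.30 and -1.24 in the combined treatment. All 5 forward-strand probes were members and higher under EPO than in untreated cells, by 1.5 to 3.69 log2. Correlations between forward and reverse members ran from -0.51 to 0.13.

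Of the regions lower under EPO, chr1:87343550-87362900 on the forward strand had the largest difference, -4.06 ± 0.78 from IL-3/GM-CSF (SE, limma adjusted p = 0.241), at least 8.03-fold. Only 1 of its 2 tested members moved in this way, and the other differed by -0.19. The first was below background at EPO Sca1-low and EPO day 6, read -3.73 in EPO Sca1-high cells, and read -2.79, -1.20 and 2.07 under IL-3/GM-CSF. In the combined treatment it read -2.30, -1.26 and 1.12, and in untreated cells -3.03, so the 2 highest arrays were the day 6 arrays that had received GM-CSF. The single probe of chrX:50096566-50098135 on the reverse strand differed by -3.10 ± 0.61 (SE, limma adjusted p = 0.242), at least 5.53-fold.

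A group on the X chromosome shared 1 profile. Regions chrX:121004130-121007360 and chrX:120324027-120326909 on the reverse strand and chrX:121520904-121524132 and chrX:122648893-122652122 on the forward strand were highest at IL-3/GM-CSF day 6, at 2.50, 2.35, 1.71 and 1.13, and next highest at the combined day 6, at 1.13, 0.96, 0.26 and -0.32. In untreated cells and at EPO day 6 all 4 were below background. On the combined Sca1-low array they read -0.67, -0.89, -1.82 and -2.54. At chrX:121004130-121007360 the difference of EPO from IL-3/GM-CSF was -3.92 ± 1.31 (SE, limma adjusted p = 0.297), at least 7.02-fold since 2 of the 3 EPO arrays were below background, and both its probes were lower under EPO. These regions lie within 2.4 Mb and have nearly equal lengths of 2883 to 3231 bases. Probes in near-identical copies can bind the same RNA, and the sequences were not compared here.

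The third comparison set each treatment against untreated cells. All 3 share the 1 untreated array, so a deviation of that array enters each of them. In limma 0 members passed for any treatment (0% of all probes in each case), and 677, 304 and 238 members had an unadjusted p under 0.05 for EPO, IL-3/GM-CSF and the combination. These are 8.81%, 3.95% and 3.10% of members, against 9.34%, 5.27% and 3.86% of all probes. With the slide as a block 64 members passed for EPO, and the share over all probes was not counted there. By size, 44 members were higher and 304 lower under EPO in all 3 populations, or 0.572% and 3.95% of members, against 0.629% and 2.23% of all probes. For IL-3/GM-CSF 49 were higher and 97 lower, or 0.637% and 1.26%, against 1.06% and 2.15%. For the combined treatment 55 were higher and 55 lower, or 0.715% each, against 1.07% and 1.71%. After quantile normalization these splits became 35 higher and 124 lower for IL-3/GM-CSF and 45 higher and 83 lower for the combined treatment, and after normexp with quantile normalization 7 and 35, and 9 and 23. Among members above background on all 10 arrays they were 11 and 8, and 6 and 8.

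Of these 6 counts, only the members lower under EPO made up a larger share than among all probes. The 2 EPO arrays with the highest background limits take part in that count. With levels raised to the background limit the 304 became 131, and among members above background on all 10 arrays 42 were lower and 23 higher. Shares over all probes were not counted in these settings, so whether the larger share among members remains there was not tested. On single arrays, 22.2% of members were at least 2-fold higher than untreated cells in EPO Sca1-low and 14.6% lower, against 20.0% and 16.7% of all probes. EPO Sca1-high, on the same slide, had 6.74% and 7.48% of members, against 4.50% and 4.41% of all probes. EPO day 6 had 7.84% and 13.8%, against 9.91% and 14.6%. For IL-3/GM-CSF 10.8%, 9.65% and 7.54% of members were higher in Sca1-low cells, Sca1-high cells and at day 6, against 8.72%, 8.99% and 8.94% of all probes. The shares lower were 5.80%, 6.18% and 9.51%, against 8.62%, 6.50% and 9.23%. In the combined treatment 17.8%, 14.5% and 5.54% of members were higher, against 13.4%, 11.2% and 7.01%, and 4.93%, 3.50% and 10.5% were lower, against 8.87%, 5.10% and 8.10%. Members were thus above all probes in their share of higher values on each day 3 array and below it at day 6. Untreated cells share their slide with EPO day 6 and combined day 6.

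Single regions against untreated cells mostly rested on 1 probe. Large differences were at chr1:23334791-23335367 on the forward strand, which read -0.78 in untreated cells and was below background on all treated arrays but the combined Sca1-low one, where it read -3.40. Its differences were at least 8.83-fold for EPO, 13.5-fold for IL-3/GM-CSF and 13.9-fold for the combined treatment, and the other 2 probes of the region were no members. At chr2:94046243-94070067 on the forward strand 1 of 5 probes read -0.96 in untreated cells, was below background on the EPO and IL-3/GM-CSF arrays and read -3.84 in combined Sca1-low cells. By contrast, all 3 probes of chr1:139806645-139809498 on the forward strand were lower under EPO, by -4.12 to -2.45. The brightest of them read -0.36 in untreated cells and -2.25 in EPO Sca1-high cells, was below background on the other 2 EPO arrays, which makes its difference at least 6.94-fold, and read 1.09 in combined Sca1-high cells, its highest array.

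Among the regions above untreated cells, the X chromosome group had the largest difference in the combined treatment, 6.65 ± 1.86 log2 at chrX:121004130-121007360 (SE, limma adjusted p = 1.00), at least 21.5-fold, since the untreated level was below background. For IL-3/GM-CSF it was 6.20 ± 1.86 (SE, limma adjusted p = 0.830), at least 15.8-fold, but with the slide as a block the sign turned, to -2.69. At chr12:52944867-52971992 on the reverse strand the brightest probe was higher under EPO by 3.87 ± 0.70 (SE, limma adjusted p = 0.506), at least 3.43-fold, and 3 of its 4 tested members were higher.

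The fourth comparison set day 6 against the mean of both day 3 fractions within each treatment. In limma 0 members passed (0% of all probes), 1000 (13.01%, against 10.3% of all probes) had an unadjusted p under 0.05, and 53 passed without the EPO day 6 array. Members at least 2-fold higher in all 3 treatments numbered 4 and those lower 23, or 0.0520% and 0.299% of members, against 0.13% and 0.182% of all probes. After quantile normalization 4 were higher and 8 lower. The median difference was -0.25 log2 over members and -0.08 over all probes.

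The region furthest above its day 3 level was chr6:40693617-40720167 on the forward strand, at -2.55, 0.61 and -0.02 at day 6 of EPO, IL-3/GM-CSF and the combination. At day 3 it was below background in both EPO fractions and in Sca1-low cells of IL-3 with retinoic acid, and read -2.36, -3.89 and -2.21 on the other 3 arrays. The difference was 3.67 ± 0.64 (SE, limma adjusted p = 0.392), at least 7.18-fold. Averaged over the treatments, 4 of its 5 probes were higher at day 6. The EPO day 6 level of -2.55 was that of 1 probe on 1 array: the other 4 read -5.83 to -5.48 there.

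Of the 4 regions furthest below their day 3 level, 3 were highest in Sca1-low cells of the combined treatment. At chr5:15146475-15170100 on the forward strand the brightest probe was below background at day 6 of all 3 treatments and read -1.24 and -1.27 in the EPO fractions, 0.30 and -2.70 with IL-3 and retinoic acid and 2.57 and -0.40 in the combined treatment, Sca1-low first. Averaged over the treatments, all 4 of its probes were lower at day 6, by -4.29 to -2.86. For the brightest the difference was -4.16 ± 0.86 (SE, limma adjusted p = 0.392), at least 14.9-fold. Its level of -1.24 in EPO Sca1-low cells was not shared: the other 3 probes read -5.83 to -5.29 there. Under EPO 1 of these 3 read -2.68 at day 6, against -5.83 in Sca1-low and -1.64 in Sca1-high cells. At chr8:19692532-19694101 on the reverse strand all 3 probes were lower at day 6, by -2.60 to -1.19. The brightest read 1.85 in EPO Sca1-low cells and -4.54 to -4.14 at day 6, where 2 of the 3 arrays were below background (at least 4.91-fold). The value of 1.85 was that of 1 probe on 1 array: the other 2 probes read -5.04 and -5.06 there, their lowest level, and were highest in combined Sca1-low cells, at -1.21 and -0.07.

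On both strands of chr18:3003075-3016150, at the centromeric end of the chromosome, the brightest probe shared that peak. The brightest reverse-strand probe read 3.63 in Sca1-low and 1.97 in Sca1-high cells of the combined treatment, 0.74 and -1.5 with IL-3 and retinoic acid, -2.15 and -0.66 under EPO, -2.42 in untreated cells and -2.71, -1.85 and -2.21 at day 6. The brightest forward-strand probe read 0.43 and -1.11 in the combined treatment and -4.57 in untreated cells. The difference at day 6 was -2.60 ± 0.90 on the reverse strand (SE, limma adjusted p = 0.448), where all 5 probes were lower. For the brightest forward-strand probe it was -2.79 ± 0.67 (SE, limma adjusted p = 0.392), at least 4.39-fold. Of the 3 forward-strand members, 1 did not share the peak. It was highest at IL-3/GM-CSF day 6, at -2.16, and read -3.53 in combined Sca1-low cells. The remaining forward-strand probe was above background on no array.

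This profile recurred across the genome. Of the members, 37 in 33 regions on 16 chromosomes correlated with it at 0.95 or more over the 10 arrays, 23 on the forward and 14 on the reverse strand. All 37 were highest on the combined Sca1-low array, which the selection nearly fixes, since the probe they were matched to peaks there. They make up 0.481% of members, and 80 other probes (0.315%) did the same. Members of this set lie at chr16:3111550-3130500 and chr16:3337275-3355950, and at chrX:120590872-120598071 between the X chromosome regions above. Another, chrX:120812236-121038407 on the reverse strand, contains chrX:121004130-121007360 of that group. Its probe read -6.34 at IL-3/GM-CSF day 6, where the brightest probe of the contained region read 2.5. A further member lies at chr1:183951156-183986156, whose probe read 3.98 on the combined Sca1-low and 0.32 on the untreated array. The closest named genes were Catsper4, a sperm ion channel gene, Gm20736, Iqcf4, Sly, Sfi1 and Gm10536. The reverse-strand probe on chromosome 18 that the 37 were matched to also read 1.97 in combined Sca1-high cells. In Sca1-low cells of IL-3 with retinoic acid it read 0.74, against -2.42 in untreated cells and -2.21 at combined day 6. Since all 37 peak on the same single array, the parts of the combined treatment and of that array in the peak cannot be told apart.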

How the data were processed

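Per the file headers, spot intensities came from Agilent Feature Extraction 11.0.1.1 on 1-colour mouse arrays with mm9 region annotation. The authors' series matrix gives identical intensities. Spots marked as non-uniform or population outliers were set to missing, each array's 75th percentile was subtracted on the log2 scale, and spots of 1 probe were averaged. Member probes missing a value on any array (168) were left out of tests, which left 7688.

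Tests used limma 3.58.1 (R 4.3.3) with Benjamini-Hochberg adjustment over 33053 probes above background on at least 2 arrays. Sca1 fractions were compared on the 6 day 3 arrays with treatment in the model, and all else in an additive model on 10 arrays. On simulated data for the fraction comparison, 0 of 200 probes shifted by 2 log2 and 195 of 200 shifted by 4 log2 were recovered, with 15 false calls. Only these 200 were shifted, whereas the real comparison called 422 of 33053 probes higher and 958 lower. Members that rose by as little as 1.43 log2 were called there, so the simulation does not give the sensitivity of the real test. A member also counted as 2-fold different if it differed by at least 1 log2 in all 3 treatments or populations, with the higher side above background.

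A region is described by its member probe with the highest mean. Named regions are, per comparison, the 4 with the highest and 4 with the lowest mean difference among those 2-fold different throughout, and the 4 with the largest and smallest SD. Regions with several called probes, profile groups and strand examples were chosen after values were seen. The members and lists were chosen with earlier results of these data known. Slides were numbered from the labels of the scanner files: untreated, EPO day 6 and combined day 6 share slide 1, the combined fractions and IL-3/GM-CSF day 6 slide 2, and the other fractions slide 3.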

Additional observations from a re-analysis of the deposited data

Results flagged for a closer look

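Some described regions had Sca1-low minus Sca1-high differences of at least 2-fold in opposite directions under different treatments. Each value is a difference between 2 single arrays, and the difference between treatments was not tested. At chr18:3003075-3016150 on the reverse strand the difference of the brightest probe was 2.24 log2 with IL-3 and retinoic acid and 1.67 in the combined treatment. Under EPO it was -1.49, while the other probes of that strand differed by -1.48 to 0.60. At chr5:14943275-14944205 on the forward strand it was 3.12 and 3.05 in the same order, and -4.21 under EPO, where the Sca1-low array was below background. At chr18:5951953-5952386 on the forward strand it was 1.83 and 2.95, and -1.45 under EPO. At chrX:120324027-120326909 on the reverse strand it was 1.26 in the combined treatment and -2.40 with IL-3 and retinoic acid, where the Sca1-low array was below background.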

How the results depend on the processing

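The count of 136 members called by limma between the Sca1 fractions was 218 after normexp with quantile normalization, 212 with levels raised to the background limit (an alternative added after seeing the data), 275 among probes above background on all 10 arrays (195 higher and 80 lower), 36 without the filter on dim probes and 0 in the model over all 10 arrays, with 0 to 304 when 1 array was left out. The split of higher and lower calls was 57 to 79, and 121 to 91 with levels raised to the background limit. Against untreated cells 64 members passed for EPO with the slide as a block, and for day 6 against day 3 24 passed with that block. Leaving out 1 array gave 0 for each treatment against untreated cells, 0 to 12 for EPO against IL-3/GM-CSF and 0 to 53 for day 6 against day 3. All counts under alternative settings are of members only, without the share over all probes.

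The 2-fold counts are listed in the order Sca1 fractions, EPO, IL-3/GM-CSF and combined treatment against untreated, EPO against IL-3/GM-CSF, and day 6. They were 205, 348, 146, 110, 73 and 27, and became 98, 53, 42, 32, 21 and 3 after normexp with quantile normalization, 69, 65, 19, 14, 26 and 7 among probes above background on all arrays, and 54, 23, 40, 42, 10 and 2 at 4-fold. With levels raised to the background limit they became 158, 169, 95, 59, 47 and 13, and day 6 gave 12 after quantile normalization. Leaving out 1 array leaves 2 blocks and gave 380 to 555, 420 to 919, 314 to 464, 236 to 666, 206 to 418 and 79 to 443.

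Of the 45 values given for named regions in the main setting, only 7 were called by limma. For the rest, keeping the side of the threshold means staying uncalled. All 7 were no longer called without either fraction of IL-3 with retinoic acid. Of 761 recomputed values for named regions 732 kept their direction and side of the threshold, 19 were no longer called, 6 became called and 4 changed sign. The 4 were differences of IL-3/GM-CSF from untreated cells with the slide as a block: -2.69 at chrX:121004130-121007360, -0.61 at chrX:50096566-50098135, -6.00 at chr12:111079867-111080561 and 3.49 at chr6:82773209-82787212. For each of these the cause was not tested. No paired analysis was possible because every group has 1 array and shares only the number 1, so no replicate number could be a block. The treatment term already sets the 2 fractions of each treatment against each other. The distance to neighbouring genes was not run, since mm9 gene positions were not used here. Precision is limited by 1 array per condition and by dim signal.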
